A study of Mus musculus with 37 samples.

Results

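The genes described are those of the epidermal differentiation complex, with the neighbouring S100A genes, in mouse upper urinary tract and bladder. They were chosen by name as every gene whose symbol starts with Sprr, Lce or S100a and a digit, together with Ivl, Lor, Flg, Flg2, Rptn, Hrnr, Tchh, Crnn, Crct1, Pglyrp3 and Pglyrp4. The table held 61 such genes among 24421 gene symbols, all on chromosome 3 between S100a1 (position 90511034, GRCm38) and S100a10 (position 93564643), and Flg was not analysed here. The rule uses symbols alone, and it was set with earlier results of these data known. All 37 libraries came from female BALB/c mice of the wild type. The mice given N-butyl-N-(4-hydroxybutyl) nitrosamine (BBN), a bladder carcinogen, drank it in water for 18 weeks, and the controls drank tap water. UT denotes the cancer side of BBN upper tracts (11 libraries, of which UT 9 was kept apart, since the study leaves it out), UN the noncancerous side (7 libraries) and U the ureters of untreated mice (6 libraries, both sides of 3 mice). There were 9 libraries of BBN bladder, 1 further BBN bladder (mouse 6, with T in its library name where the others have N) that was kept apart, and 3 of untreated bladder. The BBN mice were 10 in all, so UT, UN and bladder libraries with the same number share a mouse. The labels give no age, and no dose was taken from them.

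The epidermal differentiation complex is the gene cluster from which stratified squamous epithelia draw the proteins of the cornified envelope, the cross-linked shell that replaces the plasma membrane of a dying keratinocyte. Involucrin (Ivl) is laid down first as a scaffold, loricrin (Lor), the small proline-rich proteins (Sprr) and the late cornified envelope proteins (Lce) are cross-linked to it by transglutaminases, and fused-type S100 proteins such as filaggrin, repetin (Rptn), trichohyalin (Tchh), cornulin (Crnn) and hornerin (Hrnr) bundle keratin or reinforce the envelope. The S100A genes at both ends of the cluster encode small calcium-binding proteins, among them the neutrophil proteins S100A8 and S100A9. Normal urothelium does not cornify, but it is known to express some Sprr genes.

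The sequences just before the annotated starts of the Sprr genes and Ivl are shown first, because many of the results below turn on these genes. In the RefSeq promoter table (GRCm38.p6), 52 of the 61 genes had a window, and of each the 250 bases before the start were searched on both strands for TGANTCA, the letters of an AP-1 site (N being any base), and for TATAAA. Of all 32851 windows of this length, 6.75% held TGANTCA and 12.4% held TATAAA. Among the genes described, 16 of 52 held TGANTCA and 22 of 52 held TATAAA. Of the 14 Sprr genes with a window 9 held TGANTCA, and none of the 6 Lce3 or 13 Lce1 genes with a window did. In Sprr2b, Sprr2d, Sprr2e, Sprr2f, Sprr2h, Sprr2i and Sprr2k a TGANTCA match began between 193 and 198 bases before the start and TATAAA began 29 bases before it, and Sprr2k had a second TGANTCA at 182. The windows of 6 genes are written 5′ to 3′ in lower case, with both kinds of match in capitals.
Sprr2f (chr3:92364937-92365186, + strand): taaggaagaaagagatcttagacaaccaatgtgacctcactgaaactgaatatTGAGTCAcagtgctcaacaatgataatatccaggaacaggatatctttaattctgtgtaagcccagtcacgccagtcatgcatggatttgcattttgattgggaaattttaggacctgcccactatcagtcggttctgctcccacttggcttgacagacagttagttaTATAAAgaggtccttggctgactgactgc
Sprr2d (chr3:92338890-92339139, + strand): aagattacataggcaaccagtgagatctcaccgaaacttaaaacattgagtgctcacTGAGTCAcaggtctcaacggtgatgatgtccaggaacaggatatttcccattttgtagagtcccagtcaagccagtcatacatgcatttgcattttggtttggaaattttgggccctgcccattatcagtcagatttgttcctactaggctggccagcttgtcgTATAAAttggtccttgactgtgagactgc
Sprr2b (chr3:92316455-92316704, + strand): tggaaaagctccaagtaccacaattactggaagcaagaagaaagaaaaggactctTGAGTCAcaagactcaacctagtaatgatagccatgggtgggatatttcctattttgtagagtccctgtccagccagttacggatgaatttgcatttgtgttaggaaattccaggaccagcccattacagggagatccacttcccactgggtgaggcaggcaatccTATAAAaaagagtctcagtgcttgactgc
Sprr2a1 (chr3:92215585-92215834, + strand): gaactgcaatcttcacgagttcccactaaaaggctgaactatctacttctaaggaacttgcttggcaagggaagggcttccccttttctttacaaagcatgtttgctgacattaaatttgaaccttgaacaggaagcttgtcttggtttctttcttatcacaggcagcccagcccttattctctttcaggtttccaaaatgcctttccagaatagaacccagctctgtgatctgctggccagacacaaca
Sprr1a (chr3:92485882-92486131, - strand): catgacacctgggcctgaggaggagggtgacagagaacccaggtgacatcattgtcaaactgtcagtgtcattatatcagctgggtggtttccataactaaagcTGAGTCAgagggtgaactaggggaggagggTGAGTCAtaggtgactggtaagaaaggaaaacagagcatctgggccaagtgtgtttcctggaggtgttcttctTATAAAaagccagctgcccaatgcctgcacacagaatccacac
Ivl (chr3:92573736-92573985, - strand): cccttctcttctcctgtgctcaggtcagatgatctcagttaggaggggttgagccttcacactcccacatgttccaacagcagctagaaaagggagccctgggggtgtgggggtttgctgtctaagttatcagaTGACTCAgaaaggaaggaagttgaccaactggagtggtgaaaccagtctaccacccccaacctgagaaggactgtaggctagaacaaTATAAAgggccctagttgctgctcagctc
The windows of Sprr2f, Sprr2d and Sprr2b shared this arrangement. Sprr2f and Sprr2d were called higher with BBN, while Sprr2b was not called in bladder and did not pass the filter in the ureter. Sprr1a, not called in any BBN comparison, held TGANTCA 146 and 116 bases before the start, and Ivl held it at 116. The windows of Sprr2a1, Sprr2a2 and Sprr2a3 held neither. A match is a description of letters and not a site shown to be bound, and no match says only that these letters were not in this window.

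Each library held between 3557697 counts (BBN bladder 3) and 18793560 counts (a U library), and levels are given as CPM, counts scaled to the same library total. One count was worth at most 0.281 CPM in a bladder library and 0.214 CPM in a UN library. Some libraries stood apart. UN 2 had the epithelial genes Epcam at 3.2 CPM, Krt5 at 2.88 CPM and Upk2 at 0.274 CPM, while the other 6 UN libraries had Epcam from 27.6 to 737 CPM. Its adipocyte list summed to 66540.1 CPM, the highest of the UN libraries. U libraries had Epcam from 18.03 to 39.03 CPM, against 227 to 935 CPM in UT. Their adipocyte list summed to 51449.7 to 75466 CPM, against 70.1 to 25676 CPM in UT. Unlike UN 2, U libraries held Krt5 at 85.8 to 137 CPM and Upk2 at 58.7 to 120 CPM. In these bulk samples, fewer cells of a type and less RNA per cell cannot be told apart. BBN bladders 1, 3 and 4, UN 6 and 1 U library had an RNA integrity number under 5 in the study's supplementary table, and the libraries of mice 8, 9 and 10 carry a later range of library codes there.

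**Figure D1:**
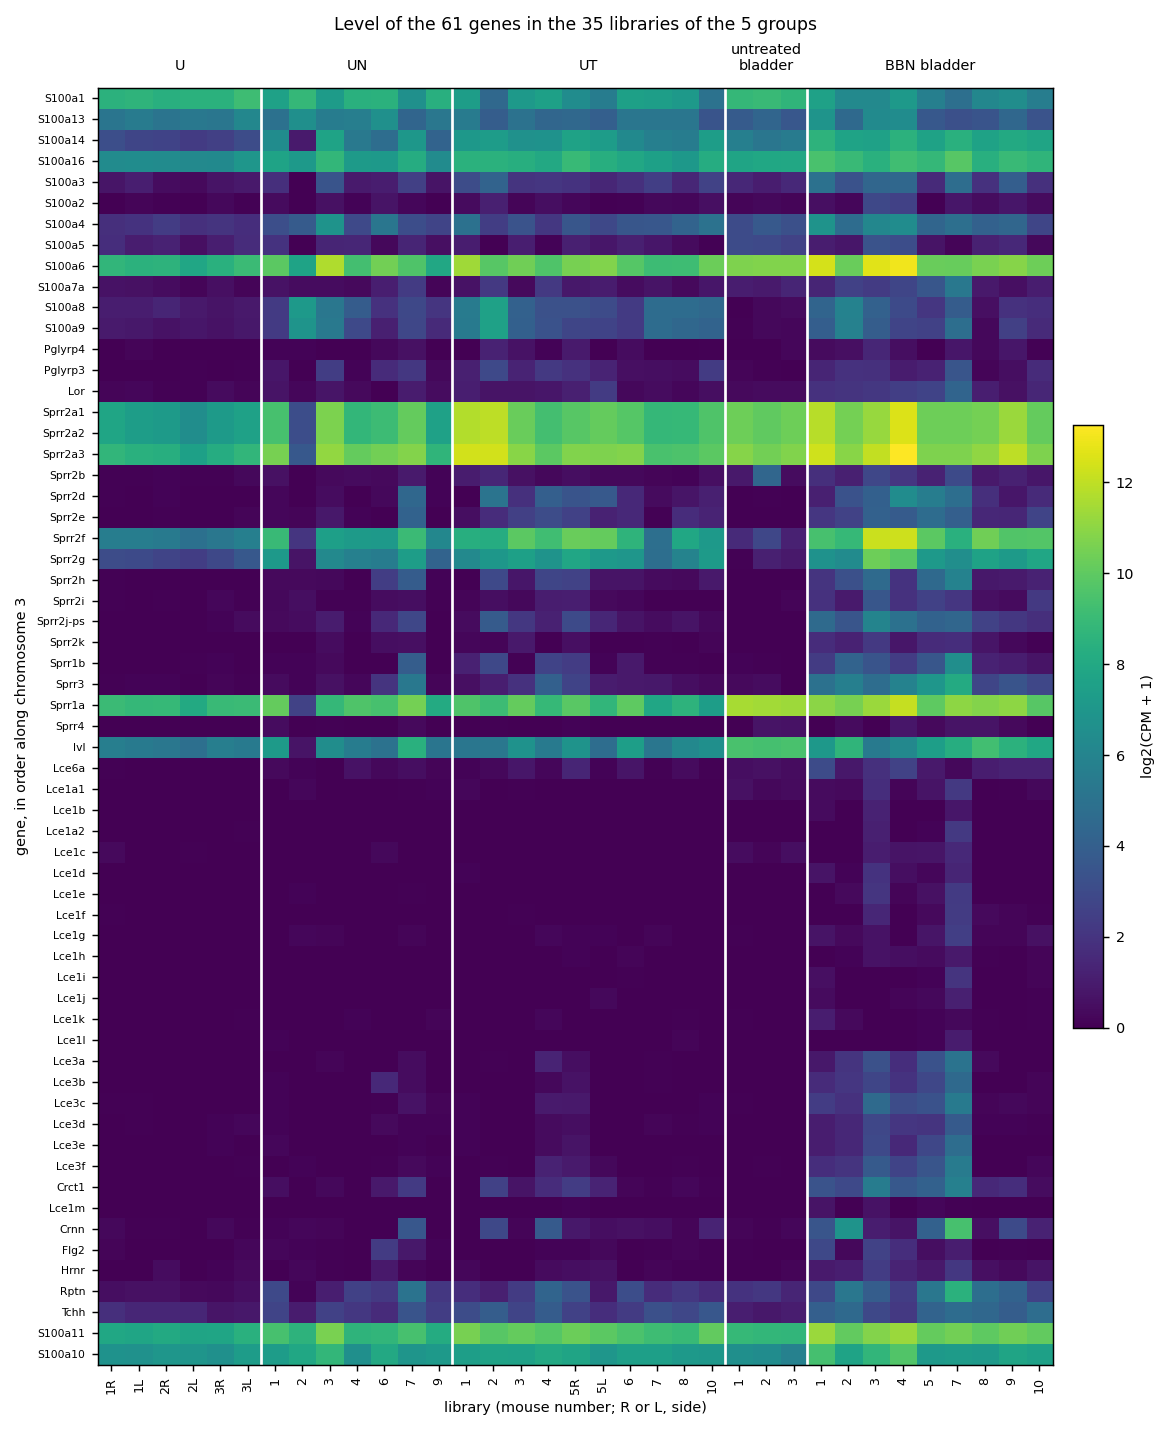
Level of each of the 61 genes (rows, in their order along chromosome 3) in the 35 libraries of the 5 groups (columns, by mouse), as log2(CPM + 1), where brighter is higher. S100a6, S100a11, Sprr2a1 to Sprr2a3 and Sprr1a were bright in every group, Lce1 rows were dark outside single BBN bladders, Lce3 rows were lit in BBN bladders 1 to 5 and 7, and the column of UN 2 was dark in the Sprr rows.

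Sprr1a and Ivl were expressed in untreated tissue, at lower CPM in the ureter than in the bladder. Sprr1a, an envelope precursor, stood at 2940.1, 2798 and 2539 CPM in the 3 untreated bladders and at 269, 490.0 and 529 CPM (lowest, median and highest) in the 6 U libraries. Ivl stood at 699, 644 and 705 CPM in the untreated bladders and at 27.9, 43.4 and 50.9 CPM in U. In both genes the 2 tissues did not overlap. In the edgeR fit of U, UN and both bladder groups, Ivl was lower in U by a log2 fold change of -3.71 ± 0.74 (SE, FDR = 0.00152), Sprr1a by -2.27 ± 0.76 (SE, FDR = 0.0477) and Sprr2a1 by -2.59 ± 0.83 (SE, FDR = 0.0372), where FDR is the Benjamini-Hochberg adjusted p of the quasi-likelihood test. Sprr2a1 and Sprr2a2 held the same value in all 37 libraries, so the reads of these near-identical copies were not told apart, and every value of Sprr2a1 stands for both. Sprr2f and Sprr2g went the other way. Sprr2f stood at 2.02, 6.13 and 1.32 CPM in the untreated bladders and 28.4, 45.1 and 52.3 CPM in U, a log2 difference of 4.09 ± 1.24 (SE, FDR = 0.0286), and Sprr2g at 0.0697, 1.27 and 0.903 and 4.4, 6.65 and 11.4 CPM (3.53 ± 1.32 SE, FDR = 0.0788). In all, 46 of the 61 genes passed the filter on low counts in this fit, which also holds UN and BBN bladder. Of these, 4 (Crct1, Lce3a, Lce3b and Sprr2k) had no counts in either U or untreated bladder, which leaves 42. Of the 46, 2 were called higher in U and 7 lower (S100a14, Sprr2a1, Sprr2a2, Sprr2b, Sprr1a, Ivl and Lce6a), where a call is an FDR under 0.1 with a fold of at least 2. Of all 18757 genes tested, 7.04% were called higher in U and 8.73% lower. All U libraries lay above all untreated bladders for 6 of the 46 and below them for 15, where 13.5% and 39.5% of all genes did. With the mouse as a block, 23 of the genes passed the filter, 5 were called higher and 13 lower, where 15.7% and 14.6% of all 15646 genes tested were. Sprr1a and Sprr2g lost their calls when any untreated bladder was left out, and Sprr2a1 and Sprr2f when untreated bladder 1 or 3 was. Sprr2g also lost its call without U 1R, U 1L or U 3L. With the mouse as a random effect Sprr1a, Sprr2a1 and Sprr2g were not called, and Sprr1a was not called by limma-trend. The call of Sprr2b rested on untreated bladder 2, which held 19.5 CPM against 0.877 and 0.378 CPM in the other two, and without it the log2 difference was -2.15 and was not called. Urothelium genes were lower in U too, with 12 of 15 called lower and a median log2 difference of -2.50, and their part in these results was not tested.

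Per length of exon, the order of the levels in the untreated bladder was Sprr1a (3471 CPM per kb, median), S100a6 (1280.1), S100a11 (847), S100a1 (669), Sprr2a3 (608), Sprr2a2 (446), Sprr2a1 (432) and Ivl (364 CPM per kb), with Sprr2f at 3.32 CPM per kb. In the BBN bladder Sprr2f stood at 1398 CPM per kb, above Sprr2a3 (754) and S100a6 (1153) and below Sprr1a (2513) and S100a11 (2602 CPM per kb). The length used was that of all annotated exons merged, 2883 bases for Sprr2a3 and 609 for Sprr2f. In CPM the order of these 2 was the reverse, with medians of 2175 and 851 CPM. The U libraries had Sprr1a at 608, S100a1 at 520.3 and S100a11 at 454 CPM per kb as their most abundant members.

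Of the 61 genes, 30 passed the filter in the ureter fit (10 UT, 7 UN and 6 U libraries), which favours genes with counts in the larger BBN groups, so the counts of calls over them are descriptions. In UT against U, 23 of the 30 were called higher, where 18.6% of all 15615 genes tested were called higher, and 3 were called lower, where 14.4% were. The same 23 genes were called higher in UN than in U, where 11.9% of all genes were, and none was called lower, where 1.65% were. They were S100a3, S100a4, S100a6, S100a8, S100a9, S100a11, S100a14 and S100a16, Pglyrp3, the Sprr2 genes Sprr2a1, Sprr2a2, Sprr2a3, Sprr2d, Sprr2e, Sprr2f, Sprr2g, Sprr2h and Sprr2j-ps, Sprr1b, Sprr3, Crct1, Rptn and Tchh. Both comparisons use the U libraries, so they are not independent. Every UT library lay above every U library for 14 of the 30, where 20.7% of all genes did, and every UN library above every U library for 3 of the 30 (S100a4, S100a8 and S100a9), where 2.09% did. The counts of UN against U depended on single libraries and on the test. The count was 12 of 27 tested without UN 7 (10.1% of all genes), 24 without UN 2 (12.7%), 26 of 32 tested without both UN 2 and UN 6 (11.6%), and 5 (S100a11, S100a14, Pglyrp3, Rptn and Tchh) with the mouse as a random effect (5.51%), while UT against U had a count of 21 with that random effect (15.6%). Of the fits that left out a library, S100a3 in UN lost its call in 18 of 23, Sprr2a3 in 11, Sprr2a1 in 8 and S100a6 in 7.

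Among the Sprr genes of the ureter, the largest amounts of RNA came from Sprr2a1 to Sprr2a3, Sprr1a and Sprr2f. Sprr2a3 stood at 184, 328 and 429.8 CPM in U, 11.7, 1403 and 2248 CPM in UN and 707, 1718 and 5233 CPM in UT, and UT 1 and UT 2 were the highest at 5218 and 5233 CPM. Against U, UT had a log2 fold change of 2.39 ± 0.67 (SE, FDR = 0.00604), and of 2.82 ± 0.71 (SE, FDR = 0.0026) for Sprr2a1, and no UT library overlapped U in either. Sprr2f stood at 28.4, 45.1 and 52.3 CPM in U, 3.11, 147 and 525 CPM in UN and 27.6, 361 and 1191 CPM in UT. UT 7 (27.6 CPM) and UN 2 (3.11 CPM) lay below the range of U, and all other UT and UN libraries lay above it. The log2 fold change of Sprr2f was 3.26 ± 0.73 (SE, FDR = 0.00111) in UT and 2.13 ± 0.72 (SE, FDR = 0.0507) in UN. Sprr2g rose from 4.4, 6.65 and 11.4 CPM in U to 26.7, 127 and 233 CPM in UT, without overlap (3.80 ± 0.65 SE, FDR = 0.000106).

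Sprr2d, Sprr2e, Sprr2h, Sprr1b and Sprr3 were almost without counts in U and varied widely between BBN libraries. Sprr3 was above U in every UT library. Sprr2d had 3 counts in all 6 U libraries together. It stood at 0, 0.161 and 20.3 CPM in UN and 0, 2.23 and 33.7 CPM in UT, and UT 2, UT 4, UT 5L and UT 5R held 33.7, 15.02, 12.03 and 10.01 CPM. From the summed counts the UT to U ratio was 226 (95% interval 77.1 to 1098) and the UN to U ratio 118 (95% interval 39.9 to 574), and these intervals cover counting error only. Sprr3 stood at 0, 0.0746 and 0.154 CPM in U, 0.0914, 0.321 and 39.3 CPM in UN and 0.265, 0.959 and 15.8 CPM in UT, with UN 7 at 39.3 and UT 4 at 15.8 CPM. Its log2 fold change was 4.78 ± 1.43 (SE, FDR = 0.00912) in UT. UN 7 was also the highest UN library for Sprr2d, Sprr2e, Sprr2h, Sprr1b, Crct1, Crnn and Rptn. Without UN 7, the log2 fold change of Sprr2d in UN against U was 1.73 and that of Sprr3 3.07, and neither was called.

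Sprr1a and Ivl did not pass the test in either ureter comparison. Sprr1a stood at 169, 506 and 1132 CPM in UT and 5.12, 671 and 1459 CPM in UN, around the U range of 269 to 529 CPM, with log2 fold changes of 0.08 ± 0.55 (SE, FDR = 0.913) and 0.40 ± 0.59 (SE, FDR = 0.687) from U. Ivl stood at 26.02, 57.9 and 172 CPM in UT and 0.64, 47.4 and 347 CPM in UN, with log2 fold changes of 0.48 ± 0.58 (SE, FDR = 0.518) and 0.95 ± 0.63 (SE, FDR = 0.321). UN 2 was the lowest for both (5.12 and 0.64 CPM) and UN 7 the highest of UN (1459 and 347 CPM). Sprr2b, Sprr2i, Sprr2k and Sprr4 did not pass the filter in the ureter, where their highest library held 1.72, 1.19, 0.904 and 0.381 CPM.

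**Figure D2:**
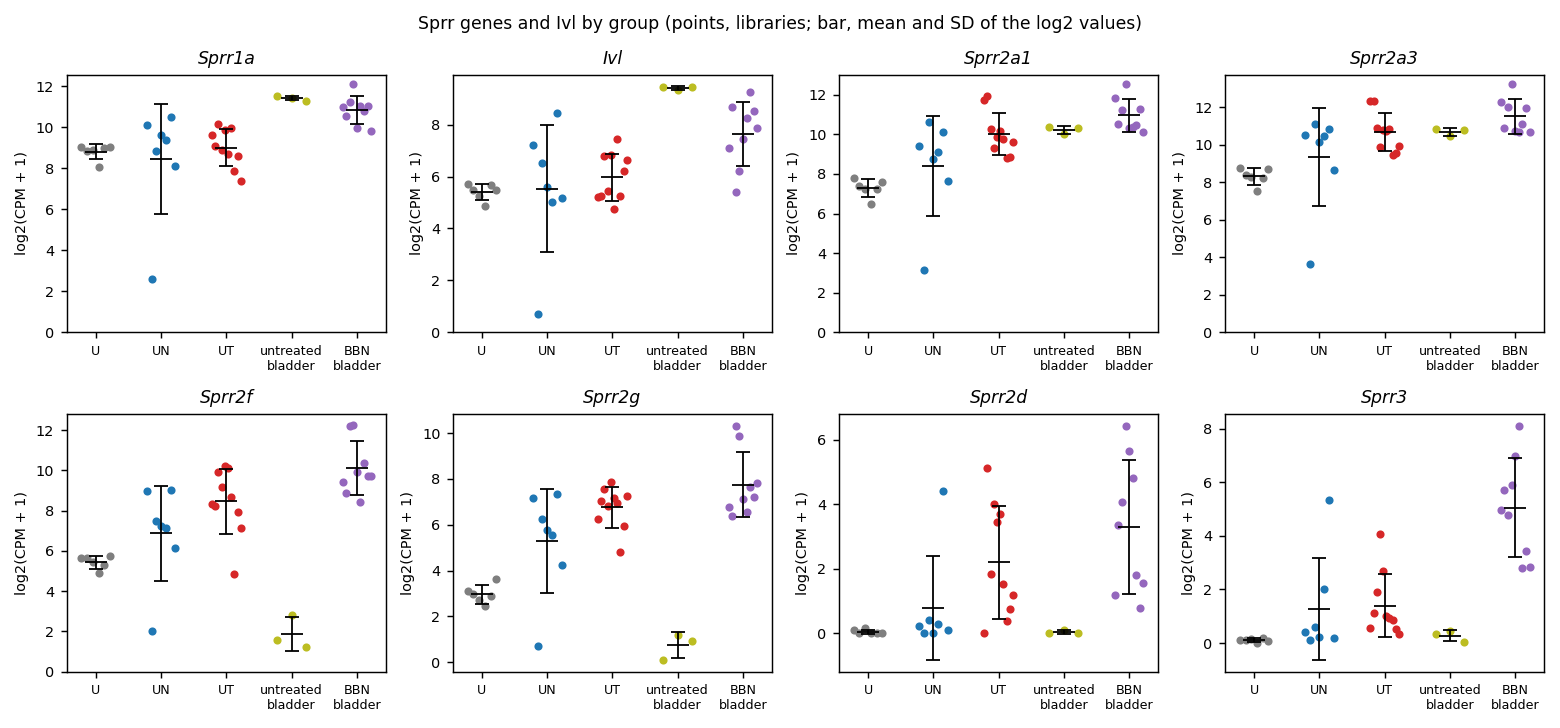
Level of 8 genes in each library (points) of U, UN, UT, untreated bladder and BBN bladder as log2(CPM + 1), with the mean and SD of these log2 values per group (bars). The medians of Sprr1a and Ivl were highest in untreated bladder, while those of Sprr2f and Sprr2g were lowest there and highest in BBN bladder, and the single low UN point in Sprr1a, Ivl, Sprr2a1, Sprr2a3, Sprr2f and Sprr2g is UN 2.

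The cancerous and noncancerous sides were compared next. None of the 30 genes was called higher in UT than in UN (2.8% of all genes tested were), and edgeR gave none of the 30 an unadjusted p under 0.05 in this direction, against 0 by DESeq2 and 3 by limma-trend. The genes called lower were 2, where 7.97% of all genes were. S100a1 stood at 21.4, 146 and 185 CPM in UT and 99.6, 326 and 464 CPM in UN, a log2 fold change of -1.63 ± 0.42 (SE, FDR = 0.0351), and S100a13 at 9.85, 26.1 and 44.3 and 19.3, 46.2 and 101 CPM (-1.51 ± 0.40 SE, FDR = 0.0362). Ranges overlapped in both, as in all 30 genes (0.0128% of all genes had every UT library above every UN library). With the mouse as a block in the 6 mice with both sides, 34 of the 61 genes were tested and none was called, as was none of all 16476 genes, of which 522 had an unadjusted p under 0.05 by edgeR, and S100a1 was lower in UT in 5 of 6 mice with a log2 fold change of -0.996. Both calls were also lost with the RNA integrity number as a covariate, in the first range of codes, without both UN 2 and UN 6 and with only the 2 groups compared, and that of S100a13 without UN 6 alone or with a random effect per mouse. The log2 fold change was 1.13 ± 0.62 (SE, FDR = 0.22) for Sprr2f, 0.94 ± 0.61 (SE, FDR = 0.301) for Sprr2a1 and -1.09 ± 0.96 (SE, FDR = 0.454) for Sprr3, without a call. Of the adipocyte genes, 5 of 10 were called lower in UT against UN (median log2 fold change -2.01), and of the smooth muscle genes 6 of 8 (-1.35). None of all genes was called lower with the RNA integrity number as a covariate, without both UN 2 and UN 6, with only the 2 groups compared or with the block. The part of fat and smooth muscle in the result for S100a1 was not tested.

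In the bladder, 46 of the 61 genes passed the filter, 29 were called higher with BBN and 1 lower, where 7.08% and 5.47% of all 17984 genes tested were. The filter favours genes with counts in the larger BBN group, and 9 of the 46, all among the 29, had 0 counts in the untreated bladders, so these counts are descriptions. All 9 BBN bladders lay above all 3 untreated bladders for 26 of the 46, where 5.5% of all genes did. The median log2 fold change over all genes tested was 0.23 in this fit. With only 2 untreated bladders the count of higher calls fell to 10, 11 or 14 of 53 tested, according to which was left out, where 2.69% to 2.75% of all genes were called higher. It was 29 of 45 without BBN bladder 7 (7.53%), 31 of 43 without the BBN bladders of low RNA integrity (12.1%) and 40 of 46 by DESeq2 (24.6%). Of the 29 genes, 15 lost their call without any one of the untreated bladders (Crnn, the 6 Lce3 genes, Lor, Pglyrp3, Rptn, S100a3, S100a11, S100a16, Sprr1b and Sprr2d), and 4 without untreated bladder 1 (Hrnr, S100a8, S100a9 and Sprr2i, of which S100a9 alone kept it without untreated bladder 2). The other 10 (Crct1, S100a14, Sprr2e, Sprr2f, Sprr2g, Sprr2h, Sprr2j-ps, Sprr2k, Sprr3 and Tchh) kept it whichever library was left out.

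Of the 15 Sprr genes that passed the filter in bladder, 10 were called higher, and all 10 stood at 6.13 CPM or less in every untreated bladder. Sprr2f stood at 2.02, 6.13 and 1.32 CPM in the untreated bladders and at 347, 851 and 4845 CPM in BBN bladders, a log2 fold change of 9.79 ± 1.82 (SE, FDR = 0.00399). Sprr2g went from 0.0697, 1.27 and 0.903 CPM to 82.4, 147 and 1288 CPM (9.65 ± 1.94 SE, FDR = 0.00677). BBN bladders 3 and 4, both of low RNA integrity, were the highest for these genes, and the lowest BBN bladder was still 347 CPM for Sprr2f. Sprr2e, Sprr2h, Sprr2j-ps and Sprr2k had 0 counts in the untreated bladders. Against a floor of 3 counts over the group, the counts summed over the BBN bladders were at least 141-fold, 218-fold, 213-fold and 19.3-fold higher. These bounds are for the sums and not for single bladders. For Sprr2h, bladder 7 held 58.8 CPM and gave the most counts, and the lowest BBN bladder held 0.822 CPM. Sprr2d, Sprr1b and Sprr2i had 1, 2 and 2 counts in the untreated bladders. Their ratios of summed counts were 889.8 (95% interval 159.5 to 35163), 427 (95% interval 118 to 3529) and 59.6 (95% interval 16.3 to 495). For Sprr1b, bladder 7 held 91.8 CPM and the next highest, bladder 2, 18.0 CPM. Sprr3 stood at 0.279, 0.35 and 0.0301 CPM and then 5.89, 30.2 and 275 CPM (8.57 ± 1.74 SE, FDR = 0.00713), with BBN bladder 7 the highest. Reads of the Sprr2 genes may be shared among close copies, which the counts as deposited do not show.

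Sprr1a, Sprr2a1, Sprr2a3, Sprr2b and Ivl did not pass the test in bladder. Sprr1a stood at 893, 2025 and 4415 CPM with BBN and 2940.1, 2798 and 2539 CPM without, a log2 fold change of 0.12 ± 0.70 (SE, FDR = 0.925). Sprr2a1 had 1.60 ± 0.88 (SE, FDR = 0.236) and Sprr2a3 1.76 ± 0.94 (SE, FDR = 0.228), and BBN bladders 1, 3 and 4, of low RNA integrity, were the 3 highest for Sprr2a3. Ivl stood at 41.9, 234 and 617 CPM with BBN, and every BBN bladder lay below every untreated one, but its log2 fold change of -1.26 ± 0.47 (SE, FDR = 0.118) missed the threshold. Sprr2b had -0.83 ± 1.05 (SE, FDR = 0.627). It stood at 0.877, 19.5 and 0.378 CPM without BBN and 0.716, 1.43 and 6.77 CPM with it, so the negative sign rested on untreated bladder 2. Sprr4 was at 0 to 0.767 CPM and did not pass the filter.

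**Figure D3:**
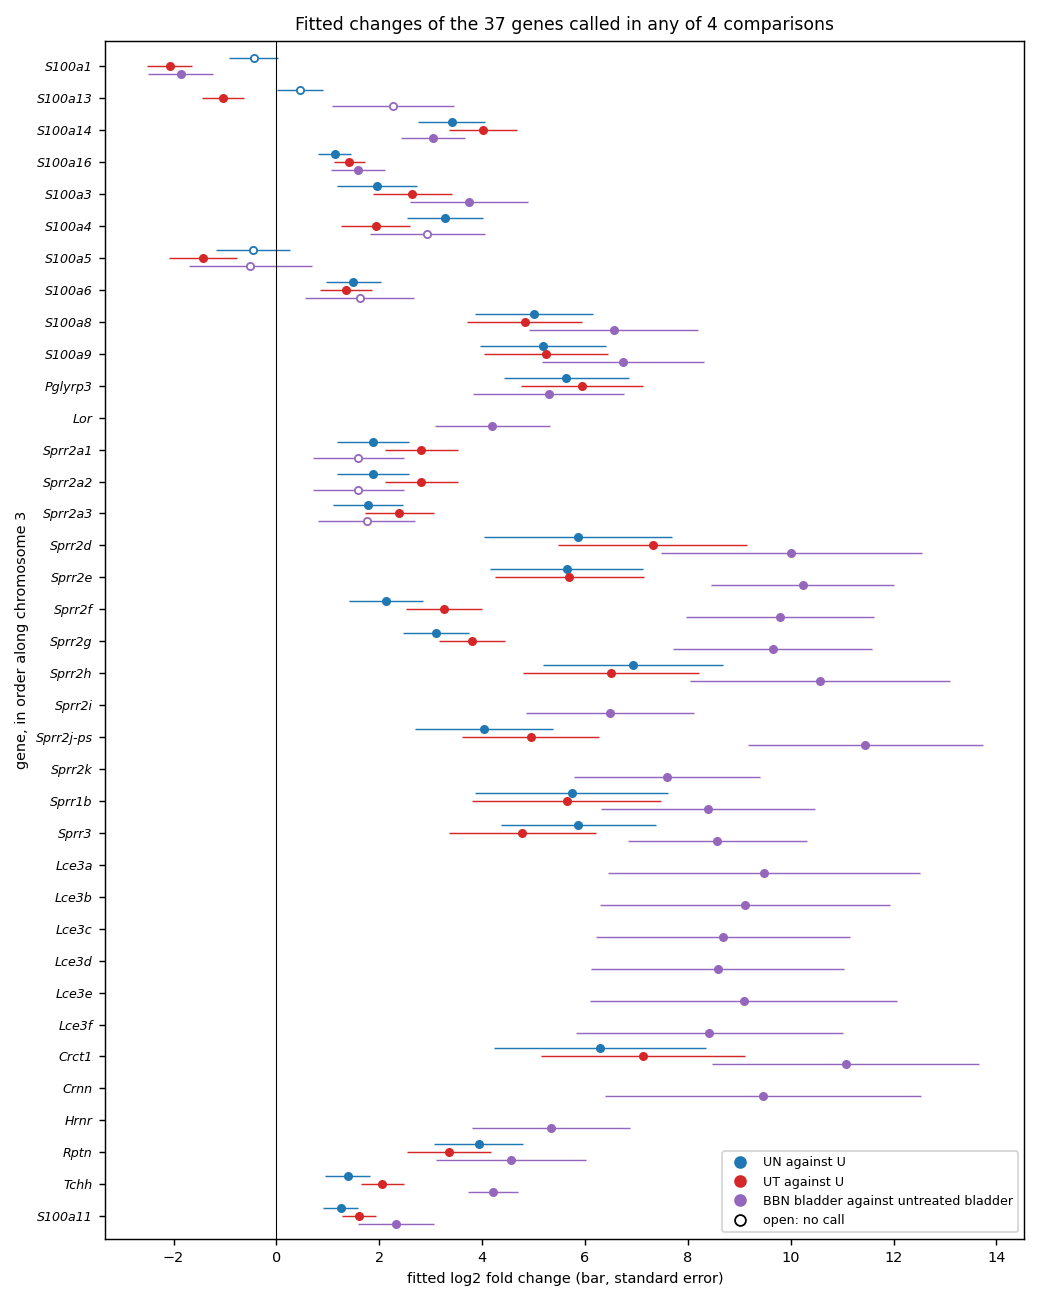
Fitted log2 fold change (point) with its standard error (bar) for the 37 genes called in any of the comparisons UT against UN, UN against U, UT against U and BBN bladder against untreated bladder, shown for the last 3. Filled points passed the thresholds, open points did not, and a missing point did not pass the filter. The bladder points of Sprr2d, Sprr2f, Sprr2g and Sprr3 lie to the right of the ureter points, and S100a1 lies left of 0 in UT and in bladder. Fitted values of genes with 0 counts in the control group depend on the prior count and are no measure of size.

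The change with BBN differed between bladder and noncancerous ureter in 4 genes. Here the test was of the difference itself, that is, UN against U minus BBN bladder against untreated bladder, and 0.682% of the 18757 genes tested were called in the negative direction. The difference was -7.65 ± 1.57 (SE, FDR = 0.0118) on the log2 scale for Sprr2f, -6.53 ± 1.62 (SE, FDR = 0.0382) for Sprr2g, -8.78 ± 2.45 (SE, FDR = 0.0795) for Lce3d and -2.81 ± 0.61 (SE, FDR = 0.0168) for Tchh. For Sprr2f the untreated ureter (28.4 to 52.3 CPM) was already above the untreated bladder, and the BBN bladder (347 to 4845 CPM) overlapped UN (3.11 to 525 CPM) only through UN 1 and UN 7. Tchh, the fused-type S100 protein of hair sheath and filiform papillae, stood at 0.693, 1.69 and 2.5 CPM in U, 1.01, 4.34 and 10.02 CPM in UN, 1.18, 0.799 and 1.08 CPM in untreated bladder and 3.58, 17.6 and 25.6 CPM in BBN bladder. Lce3d had 0 counts in untreated bladder after rounding, so its fitted difference depends on the prior count. Its counts summed over the BBN bladders were at least 45.9-fold above the floor. Single BBN bladders ran from 0.0721 CPM in bladder 10 to 12.3 CPM in bladder 7. Sprr2g lost the call with any 1 untreated bladder left out. Lce3d lost it in 9 of the 25 fits that left out a library, and by limma-trend. These 9 were without an untreated bladder, UN 1, UN 4, BBN bladder 7, U 1L, U 3R or U 3L. A random effect for the mouse left Sprr2f and Tchh called. No member was called in the positive direction, where 1.65% of all genes were, and the RNA integrity number as a covariate gave 1.

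Late envelope genes separated by cluster. The 6 Lce3 genes, which in skin are induced by barrier injury, were found mainly in the BBN bladder. Lce3c stood at 0.144, 4.19 and 41.6 CPM there, with 1 count in the untreated bladders, a ratio of summed counts of 435 (95% interval 77.9 to 17192). Lce3f stood at 0.0137, 3.05 and 45.2 CPM, a ratio of 436 (95% interval 78.1 to 17246). In both genes bladder 7 was the highest and gave the most counts to the ratio, and the next, bladder 3, held 23.0 and 12.8 CPM. Lce3a, Lce3b and Lce3e stood at medians of 2.3, 2.92 and 1.74 CPM. Their counts summed over the BBN bladders were at least 107-fold, 77.4-fold and 80.4-fold above the floor of the untreated bladders. Bladder 7 was the highest for each and gave the most counts, and the lowest BBN bladder held 0, 0.0132 and 0.0137 CPM. These bounds are for the sums and not for single bladders. All 6 were called higher by edgeR (FDR from 0.0421 for Lce3c to 0.0852 for Lce3e), none by limma-trend.

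The BBN bladders fell into separate levels for Lce3. In bladders 1, 2, 3, 4, 5 and 7, of the first range of library codes, Lce3c was between 2.69 and 41.6 CPM, and in bladders 8, 9 and 10, of the second range, it was between 0.144 and 0.234 CPM. The same gap without overlap was seen in all 6 Lce3 genes, in Crct1 (6.73 to 54.6 against 0.36 to 2.32 CPM), in Sprr1b (4.02 to 91.8 against 0.649 to 1.37 CPM) and in Sprr3 (26.1 to 275 against 5.89 to 9.88 CPM). Sprr2f showed no such gap (827 to 1334 CPM in bladders 8, 9 and 10, within the range of the first 6), and Tchh overlapped too (3.58 to 25.04 against 14.2 to 25.6 CPM). The range of codes and the mouse cannot be told apart. Within the first range alone, 33 of the 45 genes tested were called higher in BBN bladder, where 14.2% of all 17599 genes tested were.

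**Figure D4:**
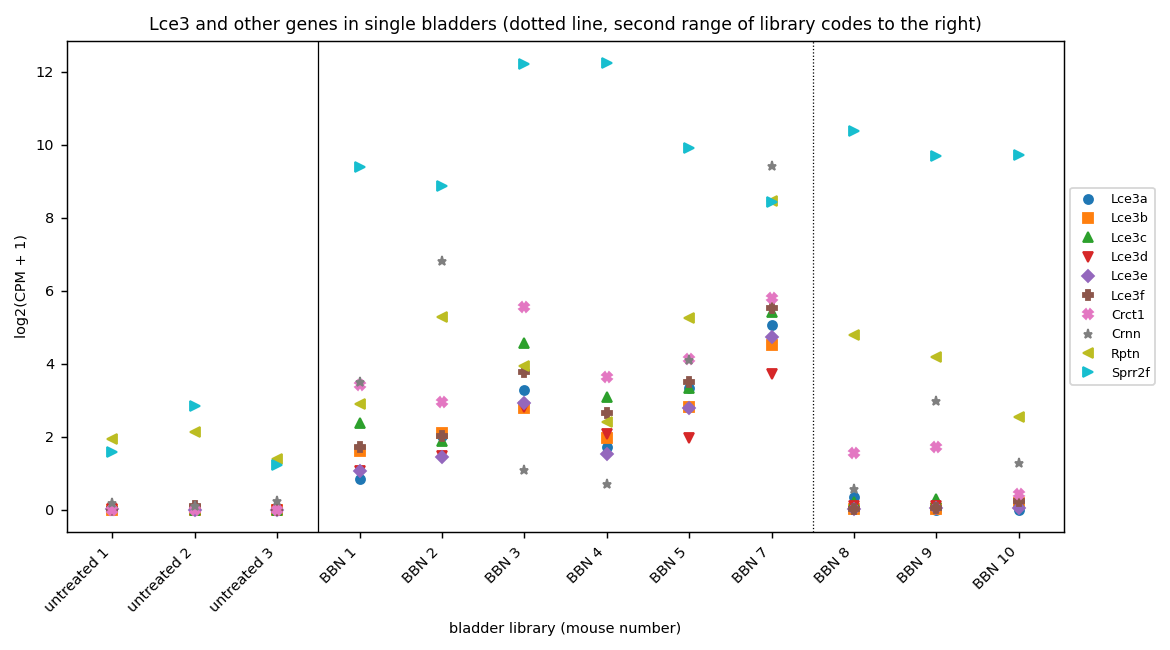
Level of the 6 Lce3 genes, Crct1, Crnn, Rptn and Sprr2f (symbols) in each untreated and BBN bladder (columns) as log2(CPM + 1). Lce3 genes lie near 0 in the 3 untreated bladders and in BBN bladders 8, 9 and 10 and higher in bladders 1 to 5 and 7, while Sprr2f is high in all BBN bladders and Crnn peaks in bladder 7.

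In the ureter the Lce3 genes stayed low. Their highest values were 1.93 CPM for Lce3b in UN 6 and 1.51 CPM for Lce3a in UT 4, and none passed the filter. The 14 Lce1 genes, which in epidermis come late in cornification, did not pass the filter in the ureter, where their highest value was 0.278 CPM. In BBN bladder their highest values ran from 0.631 CPM (Lce1m) to 4.57 CPM (Lce1g), and the highest library was bladder 7, 3 or 1 for each. Lce6a stood at 0.199, 1.37 and 7.26 CPM in BBN bladder and 0.418, 0.533 and 0.361 CPM in untreated bladder, a log2 fold change of 3.09 ± 1.30 (SE, FDR = 0.151).

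Of the remaining envelope proteins, Crct1, a cysteine-rich neighbour of the Lce genes, had 0 counts in all U libraries and all untreated bladders. It stood at 0.36, 9.63 and 54.6 CPM in BBN bladder, 0, 0.405 and 4.9 CPM in UT and 0, 0.2 and 3.77 CPM in UN. The summed counts of these groups were at least 228-fold, 40.9-fold and 25.7-fold above the floor of their untreated group. Bladder 7 gave the most counts in bladder (54.6 CPM). UN 7 gave the most in UN, and the next UN library held 0.856 CPM. Lor, the main envelope protein of epidermis, stayed low. It stood at 0.279, 0.333 and 0.301 CPM in untreated bladder and 0.53, 3.05 and 18.1 CPM in BBN bladder (4.20 ± 1.12 SE, FDR = 0.0311), and its highest ureter library was UT 5L at 4.01 CPM.

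Among the fused-type S100 genes, Crnn and Rptn were highest in BBN bladder 7, Tchh in bladder 10, Hrnr in bladder 3 and Flg2 in bladder 1. Crnn, a marker of esophageal-type squamous epithelium, stood at 0.139, 0.0666 and 0.181 CPM in untreated bladder and 0.479, 6.89 and 681 CPM in BBN bladder, with 681 CPM in bladder 7, 112 in bladder 2 and at most 16.3 CPM in the others (9.46 ± 3.07 SE, FDR = 0.0736). Without bladder 7 its log2 fold change was 7.07. Rptn stood at 2.86, 3.4 and 1.62 CPM and then 4.35, 17.1 and 355 CPM, with bladder 7 far above bladder 2 (37.8 CPM), a log2 fold change of 4.55 ± 1.46 (SE, FDR = 0.0701), and 3.01 without bladder 7. The keratins of cornifying epithelium were highest in the same library, with Krt1 at 283 CPM and Krt10 at 444 CPM against 2.51 to 2.66 and 12.3 to 14.1 CPM in untreated bladder. In the ureter Rptn stood at 0.231, 0.404 and 0.532 CPM in U and 0.823, 2.91 and 18.3 CPM in UT without overlap (3.35 ± 0.82 SE, FDR = 0.00211). Hrnr reached 4.22 CPM and Flg2 6.47 CPM in BBN bladder. Hrnr was called there (ratio of summed counts 29.4 (95% interval 7.96 to 245)) and Flg2 was not (6.50 ± 2.55 SE, FDR = 0.134).

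Of the S100A genes 8 were called higher in both ureter groups of BBN mice than in U. With the mouse as a random effect, only S100a11 and S100a14 of these kept the call in UN, so S100a8 and S100a9 lost it there. S100a8 and S100a9, whose proteins form calprotectin in neutrophils and in stressed keratinocytes, moved together. S100a8 stood at 0.616, 0.975 and 1.6 CPM in U, 2.67, 6.25 and 144 CPM in UN, 3.85, 18.8 and 189 CPM in UT, 0, 0.2 and 0.301 CPM in untreated bladder and 0.479, 6.78 and 58.7 CPM in BBN bladder. Its log2 fold change was 4.83 ± 1.12 (SE, FDR = 0.00143) in UT and 5.005 ± 1.15 (SE, FDR = 0.00781) in UN against U, and 6.56 ± 1.64 (SE, FDR = 0.0223) in bladder. S100a9 had 5.25 ± 1.20 (SE, FDR = 0.00129) in UT, 5.19 ± 1.22 (SE, FDR = 0.00888) in UN and 6.73 ± 1.58 (SE, FDR = 0.0157) in bladder. BBN libraries did not overlap the untreated ones in any of the 3 groups, although BBN bladder 8 was close to them with 0.205 CPM of S100a9.

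The highest libraries for S100a8 and S100a9 were UT 2 (189 and 195 CPM) and UN 2 (144 and 116 CPM), so a library almost without epithelial markers was among them. Neutrophil genes were read beside them, with 12 of 15 tested called higher in UT against U (median log2 fold change 4.27), 13 of 15 in UN against U and 8 of 14 in BBN bladder, where 18.6%, 11.9% and 7.08% of all genes tested were called higher. In UT against U 1 of the 15 was called lower, where 14.4% of all genes were. The summed level of the list, in which Ltf is also made by epithelium, was 22.3 to 32.7 CPM in U, 81.2 to 367 in UN, 214 to 2112 in UT, 21.2 to 23.5 in untreated bladder and 252 to 2928 CPM in BBN bladder. Ltf alone had medians of 500 CPM in UT and 620 CPM in BBN bladder, where the whole list had 868 and 810 CPM. Camp stayed at medians of 0.196 CPM in UT and 0.115 CPM in U. Csf3r, the receptor that defines the granulocyte line, stood at 3.37 to 6.78 CPM in U and 8.04 to 118 CPM in UT, highest in UT 2. It overlapped U in UN (6.14 to 34.3 CPM), and in bladder it stood at 2.42 to 3.96 CPM untreated and 2.87 to 48.2 CPM with BBN, with overlap. The part of neutrophils in the result was not tested.

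Other S100A genes called higher in the ureter included S100a11, S100a6 and S100a14. S100a11, a partner of annexins, stood at 215, 232 and 341 CPM in U, 288, 427 and 1575 in UN and 482, 934 and 1508 CPM in UT (1.60 ± 0.33 SE, FDR = 0.000559), and went from 479, 433 and 429 CPM to 1014, 1329.8 and 2496 CPM in bladder (2.33 ± 0.74 SE, FDR = 0.0667). S100a6 stood at 228, 377 and 534 CPM in U and 549, 1083 and 2645 CPM in UT (1.35 ± 0.51 SE, FDR = 0.0317). In bladder it stood at 1155, 1576 and 8083 CPM with BBN, high only in bladders 1, 3 and 4, and at 1692, 1754 and 1749.8 CPM without, and was not called (1.62 ± 1.06 SE, FDR = 0.317). S100a14, an epithelial member, rose from 3.97, 5.65 and 8.07 CPM in U to 47.001, 119.9 and 203 CPM in UT (4.02 ± 0.66 SE, FDR = 8.12e-05) and from 51.2, 36.6 and 45.6 CPM to 193, 218 and 387 CPM in bladder (3.04 ± 0.62 SE, FDR = 0.00703). S100a16 had 1.41 ± 0.30 (SE, FDR = 0.000729) in UT and 1.58 ± 0.53 (SE, FDR = 0.0826) in bladder, and S100a3 had 2.64 ± 0.77 (SE, FDR = 0.00751) and 3.75 ± 1.15 (SE, FDR = 0.0583). S100a4, known from fibroblasts and myeloid cells, was higher in UN (3.28 ± 0.74 SE, FDR = 0.00693) and UT (1.93 ± 0.67 SE, FDR = 0.0215) than in U, with UN 3 at 111 CPM, and was not called with the mouse as a random effect.

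**Figure D5:**
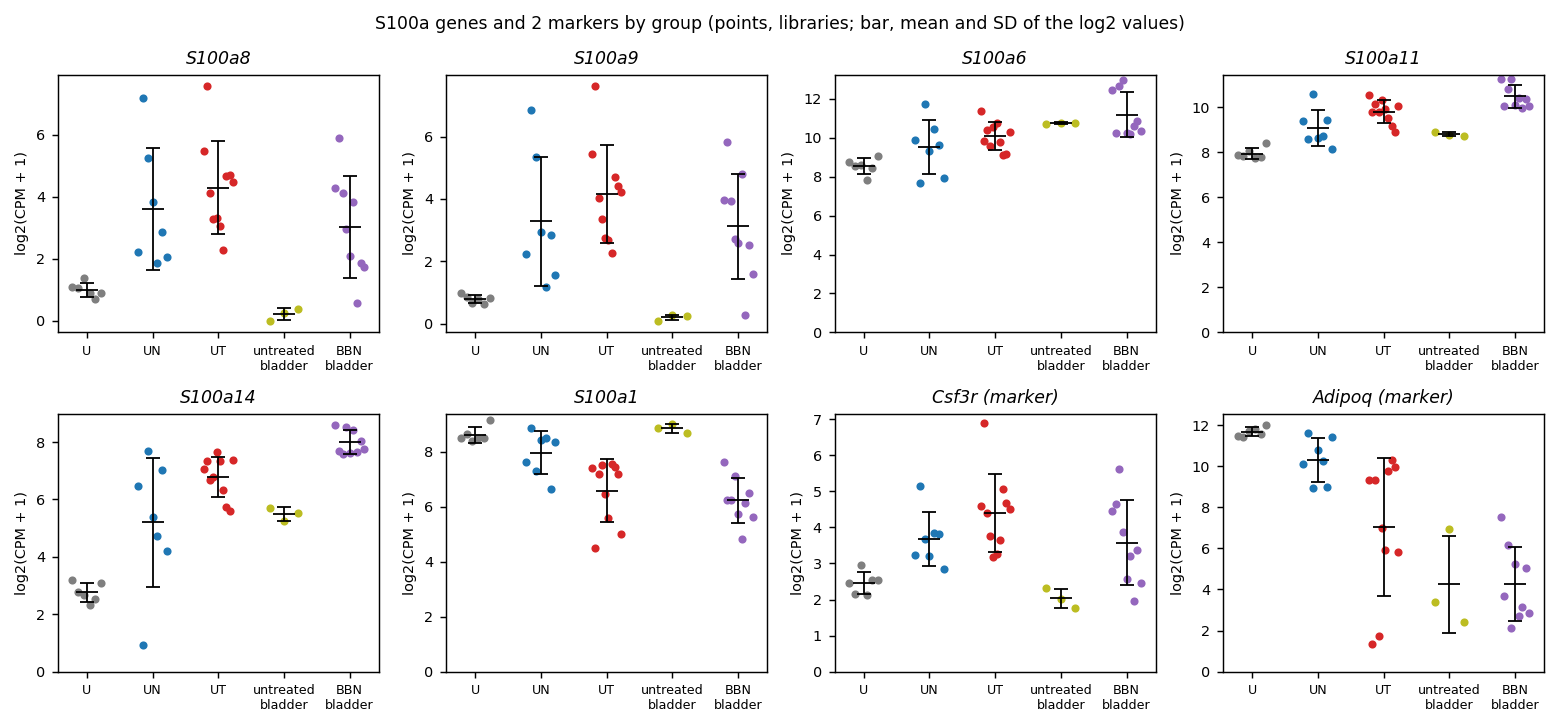
Level of 6 S100a genes and of the markers Csf3r (granulocyte) and Adipoq (adipocyte) in each library (points) as log2(CPM + 1), with mean and SD of the log2 values per group (bars). S100a8 and S100a9 were above U in every UN and UT library, S100a6 in untreated bladder was close to most BBN bladders, and the medians of S100a1 and Adipoq were lower in UT than in U.

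S100a1, the member typical of muscle, was the only member called lower both in UT against U and in BBN bladder. It stood at 330.1, 361 and 562 CPM in U and 21.4, 146 and 185 CPM in UT without overlap (-2.07 ± 0.44 SE, FDR = 0.000638), and at 464, 512 and 411 CPM in untreated bladder and 27.6, 74.5 and 193 CPM in BBN bladder, again without overlap (-1.86 ± 0.63 SE, FDR = 0.0844). The bladder call was lost when any of 10 of the 12 libraries was left out. S100a1 was the 1 gene of 30 with every UT library below U, where 6.78% of all genes were, and S100a1 and Ivl were the 2 of 46 with every BBN bladder below the untreated ones, where 12.5% of all genes were. In UT, where 14.4% of all genes were called lower, the adipocyte list was lower in all 10 genes tested (median log2 fold change -3.22) and the smooth muscle list in 6 of 8 (-1.67). In BBN bladder the smooth muscle list summed to 1011 to 7447 CPM against 9289 to 11153 CPM untreated and the skeletal muscle list to 13.5 to 139.6 against 221 to 269 CPM, without overlap in either, although no smooth muscle gene and 1 of 8 skeletal muscle genes was called lower. The median log2 fold change there was -1.14 over the smooth muscle list and 1.27, of opposite sign to the sums, over the skeletal muscle list. The part of muscle and fat in the results for S100a1 was not tested. S100a13 (-1.05 ± 0.41 SE, FDR = 0.0394) and S100a5 (-1.43 ± 0.66 SE, FDR = 0.0798) were also called lower in UT than in U. S100a13 lost this call in 4 and S100a5 in 6 of the 23 fits that left out a library, and both lost it with the RNA integrity number as a covariate and among the mice of the first range of codes. S100a10, which encodes the annexin A2 partner p11, was at 101, 115 and 163 CPM in U and 126, 180.4 and 255 CPM in UT and was not called (0.23 ± 0.31 SE, FDR = 0.56). In bladder it lay above the untreated range in every BBN library without passing the threshold (2.74 ± 0.99 SE, FDR = 0.11). S100a7a and S100a2 were not called in any of the comparisons and had medians of 3.94 and 0.474 CPM in BBN bladder.

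Pglyrp3 and Pglyrp4 encode peptidoglycan recognition proteins of epithelial surfaces. Pglyrp3 had 2 counts in U and 3 in untreated bladder. It stood at 0.37, 1.54 and 6.55 CPM in UT, 0, 0.723 and 4.34 CPM in UN and 0.137, 1.58 and 10.3 CPM in BBN bladder, with ratios of summed counts of 103 (95% interval 28.3 to 855), 78.9 (95% interval 21.4 to 658) and 40.97 (95% interval 13.9 to 199.9). It was called in all 3 comparisons (FDR = 0.000429, 0.00531 and 0.0383). Pglyrp4 stayed at or under 1.69 CPM in all libraries and was not called.

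Genes that work with the cluster were read from lists chosen with earlier results of these data known. Of all genes tested, 18.6% were called higher in UT, 11.9% in UN and 7.08% in BBN bladder, and 14.4%, 1.65% and 5.47% lower. Of the enzymes and scaffold genes of cornification, 12 of 19 tested were called higher in UT than in U (median log2 fold change 2.34, where the median of all genes was 0.08), 10 of 19 in UN than in U (2.81) and 18 of 27 in BBN bladder (5.16, where the median of all genes was 0.23). Cnfn (cornifelin) had 6.27 ± 1.89 (SE) in UT, and the protease gene Casp14 5.58 ± 1.01, while 1 gene of this list was called lower in UT. Squamous and suprabasal keratins were called higher in 10 of 10 in UT, 9 of 10 in UN and 6 of 11 in BBN bladder, with median log2 fold changes of 6.70, 5.35 and 6.57 and Krt6b at 8.08 ± 1.55 in UT and 9.32 ± 2.05 in bladder. Of the regulators of epithelial differentiation, 13 of 18 were called higher and 1 lower in UT. In UN 9 of 18 and in bladder 2 of 18 were called higher, the last being Fosl1 (4.17 ± 0.85), a subunit of AP-1, and Klf4 (2.16 ± 0.48). Of the 6 receptors of S100 proteins, 1 was called higher and 1 lower in UT, 1 higher in UN, and 2 higher and 1 lower in bladder. Emb was called higher in UT (3.20 ± 0.47), UN (3.003 ± 0.48) and bladder (2.27 ± 0.48). Ager, which encodes RAGE, was called lower in bladder (-3.05 ± 0.62). The annexin genes Anxa1, Anxa3 and Anxa8 were called higher in all 3 comparisons, Anxa1 by 3.02 ± 0.49 in UT. Urothelium genes were called higher in 6 of 15 and lower in 3 of 15 in UT, and lower in 7 of 15 in BBN bladder (median -0.95), where Upk2 fell by 5.21 on the log2 scale.

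Since Epcam was higher in every UT library than in U, the levels were also set against Epcam of the same library, a ratio chosen after the values were seen and given with no test. Sprr2f per Epcam was 1.24, 1.48 and 1.83 (lowest, median and highest) in U, 0.122, 1.18 and 1.93 in UT and 0.243, 1.28 and 5.04 in UN, with overlap, and Sprr2g and S100a14 per Epcam overlapped in the same way. Ivl per Epcam was 1.22, 1.48 and 1.81 in U and 0.0337, 0.145 and 0.645 in UT, all UT below all U, and Sprr1a, Sprr2a3, S100a6, S100a11 and S100a16 per Epcam were below U in every UT library too. In the bladder Sprr2f per Epcam was 0.00686, 0.012 and 0.0326 without BBN and 0.7, 1.66 and 129.7 with it, and Ivl per Epcam was 3.43, 3.65 and 4.14 and 0.271, 0.615 and 1.35, without overlap in either gene. Between the untreated tissues, Sprr1a per Epcam was 13.6, 16.2 and 18.4 in U and 13.2, 14.9 and 17.4 in untreated bladder, Sprr2a1 per Epcam 4.98, 5.57 and 6.33 and 5.47, 6.72 and 7.77, and S100a14 per Epcam 0.172, 0.213 and 0.244 and 0.195, 0.236 and 0.303, so these genes, called lower in U, overlapped per Epcam. Ivl per Epcam was lower in U without overlap, and Sprr2f and Sprr2g per Epcam higher. The highest Sprr2f ratio came from BBN bladder 3, where Epcam was at 36.5 CPM. Epcam is 1 epithelial marker, and others changed otherwise. From U to UT the median went from 29.0 to 611 CPM for Epcam and from 138 to 547 CPM for Cdh1. For Upk2 it went from 98.6 to 20.5 CPM, so ratios to another marker would differ. The part of epithelial content in the calls was not tested.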

How the data were processed

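RNA from 37 tissue samples was made into libraries with the SMARTerHT and Nextera XT kits and sequenced by the authors. The authors deposited 1 table of estimated counts per gene symbol, of which 21.1% of the values above 0 were not whole, and all were rounded here to whole numbers. The submitters' processing notes name TopHat2 2.1.1, Cuffdiff 2.2.1 and GRCm38 (mm10). The program that produced the counts is not given in the sources used here. Estimated counts of near-identical genes depend on how shared reads were divided.

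Groups came from the labels, and samples with the same number came from the same mouse. All genes were fitted with edgeR 4.0.16 (R 4.3.3; TMM factors, filterByExpr, quasi-likelihood test), with UT, UN and U in 1 fit, both bladder groups in another and UN, U and both bladders in a joint fit. A gene was called at an FDR under 0.1, adjusted by Benjamini-Hochberg over all genes tested, with a fold of at least 2, the thresholds of the study. U held both sides of 3 mice and UT both sides of mouse 5, so these libraries are not independent animals, and the p-values treat them as such. Same-mouse UT and UN deviations from their group means had a median correlation of -0.00425 over 6 pairs (-0.213 to 0.109), and the pairing rests on the labels. Where a group had 0 counts, a floor of 3 counts over the group gave a bound, and intervals of count ratios are exact at 95% and cover counting error only. No 2 libraries of a group agreed within sampling noise (lowest chi-square per degree of freedom 7.71). The scripts were tested on simulated data.

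The members and lists were chosen with earlier results of these data known. Full statistics were given for members called in a comparison with BBN, up to the 30 most abundant, and a few genes outside this rule were named after their values were seen. Alternatives were DESeq2 1.42.0, limma-trend (limma 3.58.1), RLE factors, other filters, the RNA integrity number from the study's supplementary table, the mouse as a block or random effect, and libraries left out. The first range of library codes alone and the fits without both UN 2 and UN 6 were chosen after seeing the data.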

Additional observations from a re-analysis of the deposited data

Results flagged for a closer look

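Among 118 groups of libraries examined gene by gene, 20 had 1 library far from the rest by Dixon's test on log2(CPM + 1) at the 95% level, and chance flags about 5% of groups. UN 2 stood below the other UN libraries for Sprr2a1 and Sprr2a2 (3.15 for both on this scale, with the next library at 196 CPM), Sprr2a3 (3.67, next 404 CPM) and Sprr2f (2.04, next 68.8 CPM). UN 7 stood above the other UN libraries for Sprr2d (4.41), Sprr2e (4.18), Sprr1b (3.92), Sprr3 (5.33), Crct1 (2.25), Crnn (3.60), Lce3c (0.66) and Lce3f (0.32), all as log2(CPM + 1). BBN bladder 7 stood above the other BBN bladders for Rptn (8.48, next 37.8 CPM). UT 5L stood above the other UT libraries for Lor (2.32) and UT 4 for Lce3a (1.33). Among the U libraries, 3L was highest for S100a1 (9.14), S100a16 (6.96), Sprr2j-ps (0.41) and Lce3f (0.091), and 1R for Sprr2h (0.097), the last 3 values being a few counts or fewer.

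The change with BBN in noncancerous ureter minus that in bladder passed the test of the difference for Sprr2f (-7.65 on the log2 scale), Sprr2g (-6.53), Lce3d (-8.78) and Tchh (-2.81) by edgeR.

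In the bladder of mouse 6, 28 of the 29 genes called higher in BBN bladder lay above all 3 untreated bladders, as did 84.3% of all 1274 genes called higher. In UT 9, 15 of the 23 genes called higher in UT lay above all 6 U libraries, as did 75.1% of all 2898 genes called higher.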

How the results depend on the processing

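No fitted direction of a called gene reversed in any alternative run. Over all alternatives, 2534 fits of single genes kept their call and 250 lost it. Of UN against U, 10 of 30 genes tested were called higher by limma-trend (7.19% of all genes), 15 of 21 under a filter of 1 CPM (11.5%), 5 of 30 with a random effect per mouse (5.51%) and 14 of 21 with only the groups compared (10.5%), against 23 of 30 (11.9%). Of UT against U, 15 of 21 were called higher under that filter (17.5%), against 23 of 30 (18.6%), and 1 of 39 was called lower with the RNA integrity number as a covariate (12.4%) and 1 of 30 among the mice of the earlier codes (14.4%), against 3 of 30 (14.4%). Of UT against UN, 0 were called lower with the RNA integrity number, among the earlier codes, without both UN 2 and UN 6, with only the groups compared or with the mouse as a replicate block (at most 0.0581% of all genes in each), and 1 with the random effect (4.09%), against 2 (7.97%). Of BBN bladder, 0 were called lower with RLE factors (5.17%), 2 by DESeq2, limma-trend, without the low-integrity bladders or with the bladder of mouse 6 (5.74% to 10.3%), and 3 with the RNA integrity number (8.09%), against 1 (5.47%). Of U against untreated bladder, 11 were called lower with the RNA integrity number (10.9%) or without the low-integrity bladders (12.1%) and 13 of 23 with the block (14.6%), against 7 of 46 (8.73%), and 1 was called higher with the random effect (8.27%) and 5 of 23 with the block (15.7%), against 2 of 46 (7.04%). Of the difference between tissues, 10 were negative by DESeq2 (2.7%) and 2 with the random effect (0.65%), against 4 (0.682%), and 1 was positive with the RNA integrity number, without both UN 2 and UN 6 or without the low-integrity bladders (2.83% to 4.71%), against 0 (1.65%). The cause was not tested. The stricter filter leaves fewer genes to test. The mouse as a block was fitted only for UT against UN and for U against untreated bladder.

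With 1 library left out at a time, the counts ran from 0 to 2 higher and 1 to 3 lower in UT against UN, 12 to 24 and 0 to 0 in UN against U, 21 to 25 and 1 to 3 in UT against U, 10 to 30 and 0 to 1 in BBN bladder, 0 to 2 and 5 to 9 in U against untreated bladder, and 0 to 1 and 2 to 5 in the difference between tissues. The lowest bladder counts came without an untreated bladder, of which 3 were available. Where the untreated group had 0 counts, as for 9 of the 29 genes called higher in BBN bladder, the size of the change is known only as a bound.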

Other observations

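Of all genes tested, 18.6% were called higher in UT against U, 11.9% in UN against U, 7.08% in BBN bladder and 2.8% in UT against UN. Basal epithelium genes were called higher in 10 of 11 tested in UT against U (median log2 fold change 3.97), 8 of 11 in UN against U and 4 of 11 in BBN bladder. In UT the keratin gene Krt14 had 7.59 ± 1.07 (SE) and the desmoglein gene Dsg3 7.05 ± 1.17. Macrophage genes were called higher in 7 of 10 in UT and 7 of 10 in UN against U, and 2 of 10 in BBN bladder. Kidney tubule genes were called higher in 5 of 5 in UT against U and 4 of 5 in UT against UN, with summed levels of 2.16 to 2930.0 CPM in UT (median 5.85), 2.37 to 27.6 CPM in UN (median 4.94) and 0.255 to 11.3 CPM in U (median 1.25), so the UT and UN medians lay close and the ranges overlapped. Of the S100 genes outside the cluster, S100b was called lower in UT against U (-1.48 ± 0.57) and S100g higher in BBN bladder (5.03 ± 1.75).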
